A study of Homo sapiens with 16 samples.

Results

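The monocyte and lymphocyte attracting chemokines described here are the 9 genes whose symbol in the deposited table is CCL2, CCL5, CCL7, CCL20, CX3CL1, CXCL10, CXCL11, CXCL12 or CXCL16, out of 61806 genes. Each symbol matched 1 gene. They were read in 16 poly(A) RNA libraries of LX-2, an immortalised human hepatic stellate cell line, and every group was cultured for 24 h and then given TWEAK or its PBS vehicle for 2 h. The 4 groups of 4 replicates were wild-type cells given 100 ng/mL recombinant human TWEAK, an Fn14 KO and an Fn14alpha KO made with CRISPR/Cas9 and given PBS, and wild-type cells given PBS (WT). Fn14 is the TWEAK receptor and the product of TNFRSF12A, and the study's title concerns an isoform of it that signals without TWEAK. Each knockout is a cell line of its own, the sources do not say whether it is 1 clone, and a difference between a knockout and WT cannot be told apart from a difference between lines.

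Chemokines are small secreted proteins that draw leukocytes along a gradient by way of G protein-coupled receptors. CCL2 and CCL7 act on CCR2 of monocytes, CCL5 on CCR1 among others, CCL20 on CCR6, CXCL10 and CXCL11 on CXCR3 of activated T cells, and CXCL12 on CXCR4. CX3CL1 and CXCL16 are made as membrane-anchored proteins that can be shed, and their receptors are CX3CR1 and CXCR6. In liver, activated stellate cells are known as a source of chemokines that recruit monocytes and lymphocytes. Many chemokine genes respond to NF-kB, which TWEAK activates through Fn14, and CXCL10 and CXCL11 are also induced by interferons.

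The promoters of CCL20 and CXCL12 are shown because these transcripts moved in opposite directions in both knockouts. They are RefSeq sequences of GRCh38.p14, from 250 bases before to 50 bases after the annotated start, at chr2:227813592-227813891 on the plus strand and chr10:44385048-44385347 on the minus strand. Capitals mark matches, on either strand, to a kappa B-like motif, GGGA followed by any 4 bases and CC.
CCL20: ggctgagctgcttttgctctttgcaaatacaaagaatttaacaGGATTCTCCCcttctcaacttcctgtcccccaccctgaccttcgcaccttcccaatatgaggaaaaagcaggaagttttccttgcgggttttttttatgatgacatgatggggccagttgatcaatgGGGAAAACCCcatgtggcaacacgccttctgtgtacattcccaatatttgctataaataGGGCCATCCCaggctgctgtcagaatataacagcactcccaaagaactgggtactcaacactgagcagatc
CXCL12: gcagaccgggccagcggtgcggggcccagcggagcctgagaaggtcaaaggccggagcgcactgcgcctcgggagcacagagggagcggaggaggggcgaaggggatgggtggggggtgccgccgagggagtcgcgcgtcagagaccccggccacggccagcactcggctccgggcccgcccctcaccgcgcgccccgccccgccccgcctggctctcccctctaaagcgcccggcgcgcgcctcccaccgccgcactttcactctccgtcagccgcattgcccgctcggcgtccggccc

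The CCL20 window held 3 such matches, on the plus strand at −80 to −71 relative to the start (GGGAAAACCC) and on the minus strand at −207 to −198 and at −21 to −12. The CXCL12 window held 0 matches. Of 35116 promoter windows of that length, 25.6% held at least 1. Windows were given for 5 members, and those of CXCL10 (GGGAAATTCC and GGGACTTCCC) and CXCL11 (GGGAAATTCC) also held matches while that of CCL7 held 0. The letters TATAAA, found in 11.5% of windows and overlapping none of these matches, stood at −29 to −24 in CCL20 and not in CXCL12. G and C made up 46.3% of the CCL20 window, 77.0% of the CXCL12 window and 58.7% of the median window. These matches are a description of letters and do not show that a factor binds.

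Total counts ran from 13335919 to 16888606 per library. TNFRSF12A, the targeted gene, stood at 33.6 ± 2.77 FPKM in the Fn14 knockout and 59.3 ± 6.43 FPKM in the Fn14alpha knockout, against 128 ± 6.29 FPKM in WT (SD, n = 4 each), so its mRNA was lower but present in both. FPKM are counts scaled by exon length and library size. Of 15 stellate cell markers, 8 averaged at least 1 FPKM in each knockout and 11 in each wild-type group. COL1A1 and SPARC were abundant in all 4 groups. The 15 markers summed to 957 to 1032 FPKM with TWEAK and 1142 to 1225 FPKM in the Fn14 knockout. They summed to 614 to 631 FPKM in the Fn14alpha knockout, against 768 to 811 FPKM in WT. Single markers went both ways. TAGLN, TIMP1 and SPARC averaged 89.8, 207 and 218 FPKM in the Fn14 knockout, against 25.4, 103 and 105 FPKM in WT. LUM, DCN and COL1A2, matrix genes of fibroblasts, averaged 0.168, 0.995 and 0.160 FPKM in the Fn14 knockout and 0.320, 0.473 and 0.425 FPKM in the Fn14alpha knockout, against 4.66, 3.79 and 1.48 FPKM in WT, and their part in the results was not tested. LRAT, the retinol-esterifying enzyme of quiescent stellate cells, had 0 counts in every group except the Fn14 knockout (0.005 FPKM there). The 10 leukocyte markers summed to 1.47 to 2.32 FPKM with TWEAK, 1.63 to 2.81 FPKM in the Fn14 knockout and 0.830 to 1.71 FPKM in the Fn14alpha knockout, against 1.67 to 2.25 FPKM in WT. Most of that sum was CD14 (0.868 to 1.35 FPKM over the group means). CSF1R averaged 0.685 FPKM in the Fn14 knockout, against 0.220 FPKM in WT, and CD68 0.425 FPKM in the Fn14 knockout, against 0.255 FPKM in WT, while the pan-leukocyte gene PTPRC was at most at 0.0100 FPKM in a group. On principal component 3 (5.43% of the variance) 2 libraries stood away from the rest, replicate 4 of WT and replicate 1 of the Fn14 knockout. No call on CCL5, CCL20, CXCL12 or CXCL16 changed when both were left out, and the fit with no filter was not repeated without them.

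Only part of the family was expressed at a level that could be tested. CCL20 (ENSG00000115009, chromosome 2, 227805739 to 227817564), CXCL16 (ENSG00000161921, chromosome 17, 4733533 to 4739928), CXCL12 (ENSG00000107562, chromosome 10, 44370165 to 44386493) and CCL5 (ENSG00000271503, chromosome 17, 35871491 to 35880793) passed a filter on low counts. The other 5 did not, and had at most 16 counts in any library (coordinates are those of the table, GRCh38). CCL5 passed only through the TWEAK libraries, where it was high, so that its difference there was a condition of its being tested. All 9 are protein-coding genes, and the counts sum over every transcript of a gene, of which GENCODE lists 8 for CXCL12 and 5 each for CCL20 and CXCL16.

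**Figure D1:**
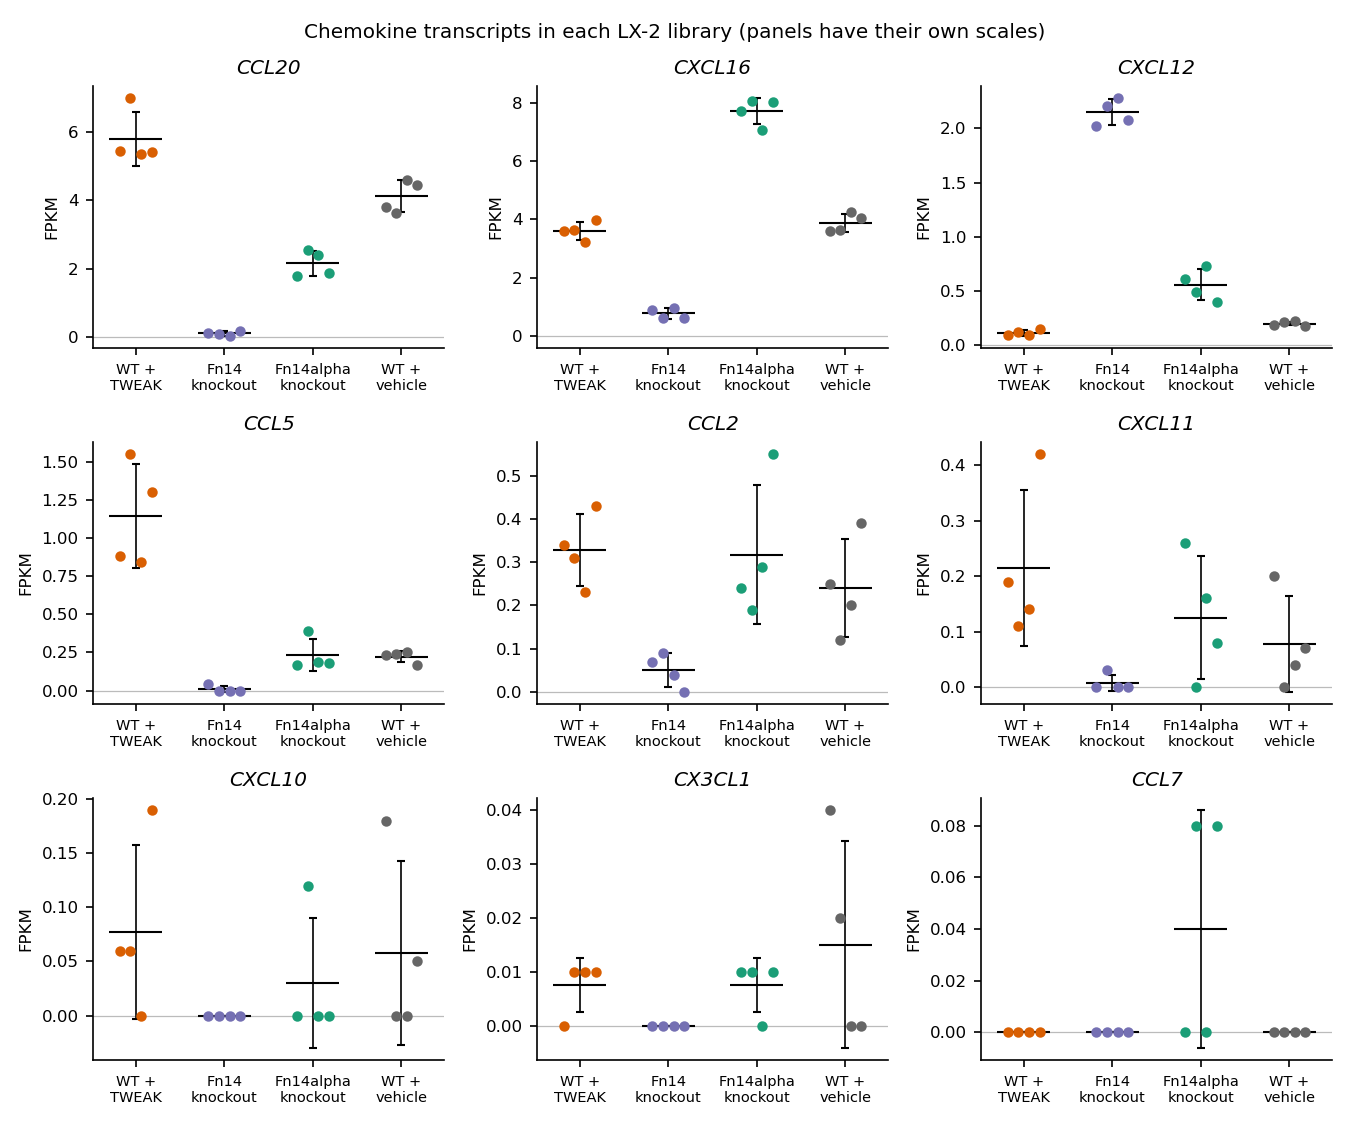
FPKM of each of the 9 chemokines in each library (points), with the mean and SD of 4 libraries (line and bars), for wild type with TWEAK, the Fn14 knockout, the Fn14alpha knockout and wild type with vehicle; each panel has its own scale. CCL20 and CXCL16 are lowest and CXCL12 highest in the Fn14 knockout, and the 3 panels of the bottom row lie at or below 0.190 FPKM.

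Summed over the 9 genes, the level was 11.3 ± 1.30 FPKM with TWEAK, 3.12 ± 0.178 FPKM in the Fn14 knockout and 11.2 ± 0.500 FPKM in the Fn14alpha knockout, against 8.82 ± 0.787 FPKM in WT (SD, n = 4 each). The make-up differed between groups. CCL20 was 51.4% of the sum with TWEAK, 3.85% in the Fn14 knockout and 19.3% in the Fn14alpha knockout, against 46.8% in WT. CXCL16 was 31.9% of the sum with TWEAK, 25.04% in the Fn14 knockout and 69.0% in the Fn14alpha knockout, against 44.0% in WT. CXCL12 was 0.998% of the sum with TWEAK, 68.9% in the Fn14 knockout and 4.98% in the Fn14alpha knockout, against 2.27% in WT. Thus the leading transcript was CCL20 in both wild-type groups, CXCL16 in the Fn14alpha knockout and CXCL12 in the Fn14 knockout. These are mRNA levels per library, and a change in the share of expressing cells cannot be told apart from a change in mRNA per cell.

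**Figure D2:**
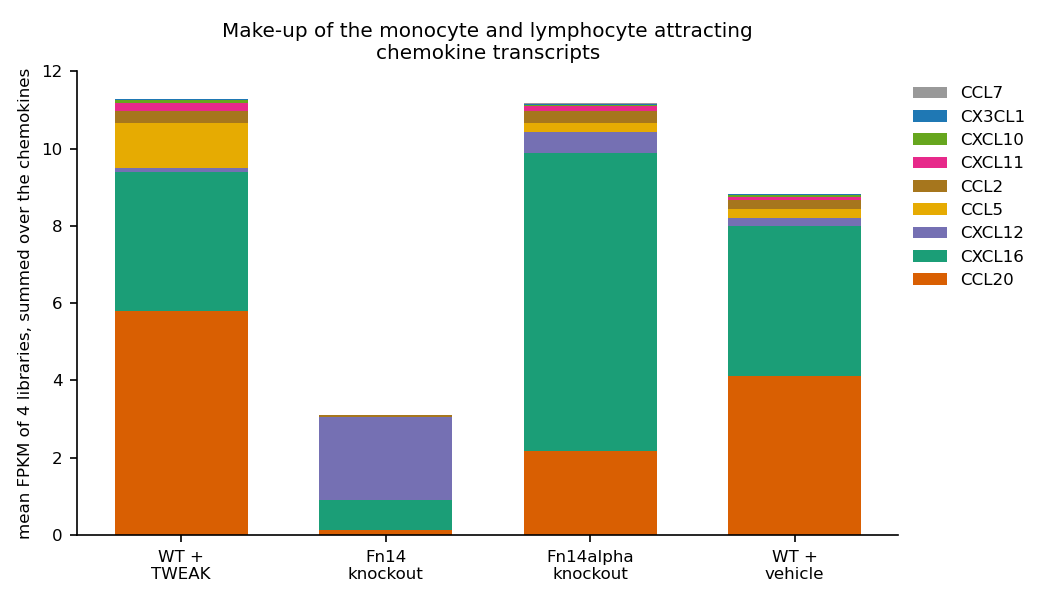
Mean FPKM of 4 libraries for each chemokine, stacked, in wild type with TWEAK, the Fn14 knockout, the Fn14alpha knockout and wild type with vehicle. The bars reach 11.3, 3.12, 11.2 and 8.82 FPKM, and the largest piece is CCL20, CXCL12, CXCL16 and CCL20 in that order.

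TWEAK was given to wild-type cells to see which transcripts change within 2 h. CCL5 and CCL20 were higher with TWEAK, CXCL16 did not pass the test, and CXCL12 was nominally lower. With edgeR's quasi-likelihood test, 6.87% of all genes tested were called at an adjusted p under 0.05, and of the 4 chemokines tested CCL20 and CCL5 were called, both higher, the second of them under the condition given above.

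CCL5, a chemokine of T cells and monocytes, stood at 0.880, 1.55, 0.840 and 1.30 FPKM in the TWEAK libraries, against 0.230, 0.240, 0.250 and 0.170 FPKM in WT. Every TWEAK library lay above every WT library. The rise was 5.22-fold (log2 fold change 2.39 ± 0.35 SE, edgeR adjusted p = 3.92e-05), on 101 counts with TWEAK against 21 counts in WT. With no filter on low counts the log2 fold change was 2.38 ± 0.41 SE (edgeR adjusted p = 9.67e-07). CCL20, the ligand of CCR6, stood at 5.43, 6.99, 5.34 and 5.41 FPKM in the TWEAK libraries, against 3.82, 3.64, 4.60 and 4.45 FPKM in WT. The groups did not overlap, and TWEAK replicate 2 lay well above the other 3 TWEAK libraries. The rise was 1.46-fold (log2 fold change 0.55 ± 0.14 SE, edgeR adjusted p = 0.0163). The call was lost when TWEAK replicate 2 was left out (adjusted p = 0.0914), without WT replicate 1 (0.0555) or without WT replicate 2 (0.0620), within a range over all alternatives of 0.00533 to 0.0914.

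CXCL12, the ligand of CXCR4, stood at 0.0900, 0.120, 0.0900 and 0.150 FPKM in the TWEAK libraries, against 0.190, 0.210, 0.220 and 0.180 FPKM in WT. All TWEAK libraries lay below all WT libraries, on 8 to 12 counts with TWEAK and 17 to 22 counts in WT. The difference missed the threshold (log2 fold change −0.81 ± 0.26 SE, edgeR adjusted p = 0.0664), and passed only with total counts in place of TMM scaling (adjusted p = 0.0419, range over all alternatives 0.0419 to 0.194). CXCL16 averaged 3.60 ± 0.311 FPKM with TWEAK and 3.88 ± 0.321 FPKM in WT (SD, n = 4 each). The groups overlapped, with a log2 fold change of −0.05 ± 0.11 SE (edgeR adjusted p = 0.840).

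Cells labelled as lacking the whole receptor, the Fn14 knockout, were set against WT. CCL20 and CXCL16, the leading pair in WT, were far lower, CCL5 was almost without counts, and CXCL12 was higher. In this comparison 52.9% of all genes tested were called, so that a call by itself says little. All 4 chemokines tested were called, CXCL12 higher and the others lower.

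CCL20 had 3, 3, 1 and 5 counts in the Fn14 knockout libraries, or 0.130, 0.110, 0.0400 and 0.200 FPKM, against 87 to 116 counts and 3.64 to 4.60 FPKM in WT. The knockout level was thus a small remainder in each library. The fitted difference was 29.9-fold (log2 fold change −4.90 ± 0.26 SE, edgeR adjusted p = 1.53e-13). CXCL16 stood at 0.910, 0.610, 0.970 and 0.630 FPKM in the Fn14 knockout libraries, against 3.59, 3.63, 4.24 and 4.06 FPKM in WT. It was 4.62-fold lower (log2 fold change −2.21 ± 0.14 SE, edgeR adjusted p = 3.18e-12), with no overlap. CCL5 had 1 count over the 4 Fn14 knockout libraries, in replicate 1, and 21 counts over those of WT, a ratio per total count of 0.0489 (95% counting interval 0.00118 to 0.304; edgeR adjusted p = 4.83e-04).

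CXCL12 went the other way. It stood at 2.02, 2.21, 2.28 and 2.08 FPKM in the Fn14 knockout libraries, against 0.190, 0.210, 0.220 and 0.180 FPKM in WT. The replicates of each group lay close together and the groups were far apart. The rise was 11.5-fold (log2 fold change 3.52 ± 0.17 SE, edgeR adjusted p = 1.47e-14), and was 3.25 on the log2 scale after removal of the median of neighbouring genes.

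**Figure D3:**
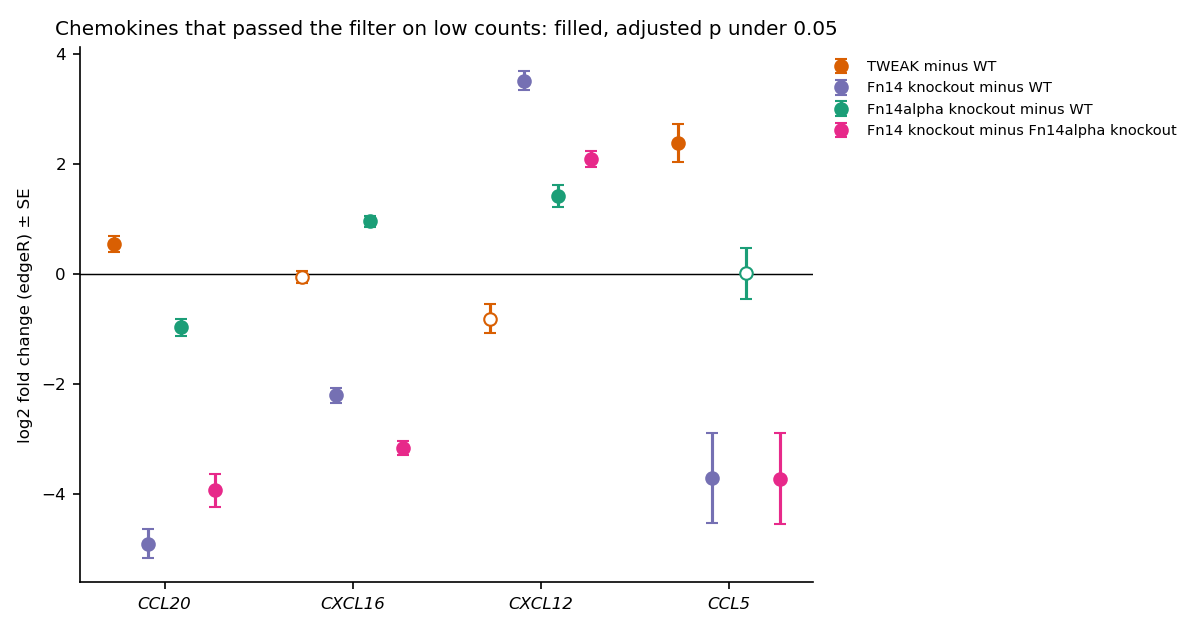
Log2 fold change of CCL20, CXCL16, CXCL12 and CCL5 from the edgeR fit, with SE bars, in the 4 comparisons; filled points have an adjusted p under 0.05. CXCL12 is above 0 in all 3 comparisons that involve a knockout, CCL20 below 0 in the same 3, and CXCL16 is above 0 at 0.96 in the Fn14alpha knockout and below 0 at −2.21 in the Fn14 knockout. The comparisons share groups.

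Cells labelled as lacking the Fn14alpha isoform were set against WT as well. CXCL16 was higher, CCL20 lower and CXCL12 higher, and CCL5 did not pass the test. Of all genes tested 42.2% were called, and of the 4 chemokines 3 were, all but CCL5. Both knockout comparisons use the same WT libraries, as does that of TWEAK. CXCL16 stood at 7.72, 8.05, 7.08 and 8.01 FPKM in the Fn14alpha knockout libraries, against 3.59, 3.63, 4.24 and 4.06 FPKM in WT. That was 1.94-fold higher with no overlap (log2 fold change 0.96 ± 0.11 SE, edgeR adjusted p = 9.54e-08). CCL20 stood at 1.80, 2.56, 2.40 and 1.89 FPKM in the Fn14alpha knockout libraries, against 3.82, 3.64, 4.60 and 4.45 FPKM in WT. It was 1.96-fold lower with no overlap (log2 fold change −0.97 ± 0.16 SE, edgeR adjusted p = 2.38e-05).

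CXCL12 stood at 0.610, 0.490, 0.730 and 0.400 FPKM in the Fn14alpha knockout libraries, all above the 0.180 to 0.220 FPKM of WT. The rise was 2.68-fold (log2 fold change 1.42 ± 0.20 SE, edgeR adjusted p = 2.39e-06). CCL5 had 20 counts over the Fn14alpha knockout libraries and 21 counts over those of WT (log2 fold change 0.01 ± 0.46 SE, edgeR adjusted p = 0.991), and with so few counts the 95% counting interval of the ratio ran from 0.529 to 2.00.

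The 2 knockouts were compared directly to see what differs between cells labelled as lacking all of Fn14 and those labelled as lacking Fn14alpha. CXCL16 differed most firmly: it was 8.98-fold lower in the Fn14 knockout, at 0.780 ± 0.187 FPKM against 7.72 ± 0.448 FPKM in the Fn14alpha knockout (SD, n = 4 each; log2 fold change −3.17 ± 0.13 SE, edgeR adjusted p = 1.28e-15). CCL20 was 15.3-fold lower, at 0.120 ± 0.0658 FPKM in the Fn14 knockout and 2.16 ± 0.374 FPKM in the Fn14alpha line (log2 fold change −3.94 ± 0.30 SE, edgeR adjusted p = 5.13e-11). CXCL12 was 4.28-fold higher, at 2.15 ± 0.119 FPKM in the Fn14 knockout and 0.557 ± 0.144 FPKM in the Fn14alpha line (log2 fold change 2.10 ± 0.15 SE, edgeR adjusted p = 1.21e-11). CCL5 had 1 count in the Fn14 knockout and 20 counts in the Fn14alpha knockout (ratio 0.0475, 95% counting interval 0.00115 to 0.297; edgeR adjusted p = 4.23e-04). All 4 were thus called, where 59.2% of all genes tested were.

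Across the groups, CCL20 was highest with TWEAK and lowest in the Fn14 knockout, with the Fn14alpha knockout between the Fn14 knockout and WT, and each neighbouring pair in that order passed the test. The call between TWEAK and WT was lost without TWEAK replicate 2, WT replicate 1 or WT replicate 2. CXCL16 was highest in the Fn14alpha knockout and lowest in the Fn14 knockout, and its levels with TWEAK and in WT were not told apart. CXCL12 was highest in the Fn14 knockout, then in the Fn14alpha knockout, with the TWEAK and WT levels at the bottom not told apart by the test. CCL5 was highest with TWEAK and lowest in the Fn14 knockout, and its levels in the Fn14alpha knockout and WT were not told apart.

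The remaining chemokines were at the edge of detection. CCL2, the main monocyte attractant, had 10, 9, 7 and 11 counts in the TWEAK libraries, 2, 3, 1 and 0 in the Fn14 knockout, 7, 5, 8 and 16 in the Fn14alpha knockout, and 7, 4, 6 and 12 in WT. In a fit with no filter on low counts it was lower in the Fn14 knockout than in WT (log2 fold change −2.04 ± 0.65 SE, edgeR adjusted p = 0.00916; 24.2% of all genes were called in that fit, 12.6% lower). It was also lower than in the Fn14alpha line (−2.40 ± 0.63 SE, edgeR adjusted p = 7.55e-04; 26.9% called, 13.2% lower). With TWEAK its log2 fold change was 0.49 ± 0.47 SE (edgeR adjusted p = 0.633; 3.33% of all genes called), and in the Fn14alpha knockout against WT it did not pass either (0.36, adjusted p = 0.667; 18.1% called). CCL2 lies close to the filter. When 1 library was left out it entered the test between the knockouts in 8 of 8 fits and was called lower in the Fn14 knockout in all 8. Against WT it entered 7 of 8 such fits, with no value without WT replicate 4, and was called lower in the Fn14 knockout in those 7. CCL2 had at most 3 counts in any Fn14 knockout library, so it could enter only through other groups, where it was higher. Its being tested thus rested on the groups where it was higher, and these fits, which share libraries, are no separate support.

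CXCL11, a CXCR3 ligand, summed to 22 counts with TWEAK, 1 count in the Fn14 knockout and 13 counts in the Fn14alpha knockout, against 8 counts in WT. Libraries within a group differed widely, from 3 to 10 counts with TWEAK and from 0 to 5 in WT. With no filter, the difference between TWEAK and WT did not pass (log2 fold change 1.54 ± 0.73 SE, edgeR adjusted p = 0.347). That between the Fn14 and Fn14alpha knockouts passed (edgeR adjusted p = 0.0210, where 26.9% of all genes were called), although their libraries overlapped. CXCL10, which shares that receptor and lies beside CXCL11 on chromosome 4, had 5 counts with TWEAK, 0 in the Fn14 knockout and 2 in the Fn14alpha knockout, against 4 in WT.

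CX3CL1 had 3 counts with TWEAK, 0 in the Fn14 knockout and 3 in the Fn14alpha knockout, against 5 in WT. CCL7, whose gene lies beside CCL2 on chromosome 17, had 2 counts in the Fn14alpha knockout and 0 in the other 12 libraries. A count of 0 over the 4 Fn14 knockout libraries allows a level of up to 0.0566 FPKM for CCL7, 0.0416 FPKM for CXCL10 and 0.00820 FPKM for CX3CL1 (a floor of 3 counts summed over its libraries). These 3 were therefore not detected in the Fn14 knockout, CCL7 was detected only by 1 count in each of 2 Fn14alpha knockout libraries, and none of the comparisons of the 3 passed with no filter (edgeR adjusted p of at least 0.112). At 2 h and at this depth a difference in them was not detectable.

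Most receptors described here were at the edge of detection. CCR6, the CCL20 receptor, had 0 counts in all 16 libraries, which allows up to 0.0124 CPM (counts scaled to library size) over the series, and CCR2, CXCR3 and CX3CR1 had at most 3 counts in a group. CXCR4, the CXCL12 receptor, had 9 counts with TWEAK, 0 in the Fn14 knockout and 2 in the Fn14alpha knockout, against 9 in WT, and did not pass the filter. CXCR6, the CXCL16 receptor, was the one established receptor of a member that passed it, and only through the Fn14 knockout libraries, so that its difference there was a condition of its being tested. It had 17 to 27 counts per library in the Fn14 knockout and 4 to 12 in WT. It averaged 0.355 ± 0.0686 FPKM in the Fn14 knockout and 0.115 ± 0.0574 FPKM in WT (SD, n = 4 each; log2 fold change with no filter 1.74 ± 0.39 SE, edgeR adjusted p = 6.26e-05). In all, 3 of 15 receptors and receptor-like genes passed the filter, and 0 of the 26 other chemokines that attract monocytes or lymphocytes, 13 of which had 0 counts in every library.

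The genes that regulate chemokine transcription are mostly parts of NF-kB and of interferon signalling. With TWEAK 10 of 20 were called by edgeR, each higher, with a median log2 fold change of 0.27 against −0.01 for all genes tested, of which 6.87% were called. NFKB2, an NF-kB subunit, rose to 42.2 FPKM with TWEAK, against 14.8 FPKM in WT (log2 fold change 1.57 ± 0.06 SE, edgeR adjusted p = 4.48e-15), TNFAIP3, a feedback inhibitor, rose by 1.11 ± 0.08 SE on the log2 scale (edgeR adjusted p = 5.69e-10), and NFKBIE, an inhibitor of the I kappa B family, by 1.26 ± 0.09 SE. In the Fn14 knockout 13 of 20 were called lower than in WT and 4 higher (median −0.44), where 52.9% of all genes tested were called. TNFAIP3 fell by 2.91 ± 0.10 SE, RELB, the subunit that pairs with NFKB2, by 2.15 ± 0.10 SE, and NFKBIZ, a nuclear co-regulator, by 2.19 ± 0.10 SE on the log2 scale (edgeR adjusted p of at most 1.31e-14). NFKBIA, the I kappa B alpha gene, was called lower at −1.31 ± 0.07 SE and BCL3, a co-regulator of NF-kB, at −1.16 ± 0.10 SE. In the Fn14alpha knockout 7 were called lower than in WT and 4 higher (median −0.10), a share near the 42.2% of all genes tested. NFKBIZ (−0.50 ± 0.09 SE), NFKB1 (−0.44 ± 0.08 SE), NFKBIA (−0.24 ± 0.07 SE) and NFKB2 (−0.20 ± 0.06 SE) were among those called lower. NFKBIE (0.39 ± 0.09 SE) and REL (0.64 ± 0.21 SE) were among those called higher. RELB (−0.19 ± 0.09 SE, adjusted p = 0.0991) and TNFAIP3 (−0.02 ± 0.08 SE, adjusted p = 0.844) did not pass. Directly compared, 13 were called lower and 3 higher in the Fn14 knockout than in the Fn14alpha knockout (median −0.41), where 59.2% of all genes tested were called.

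**Figure D4:**
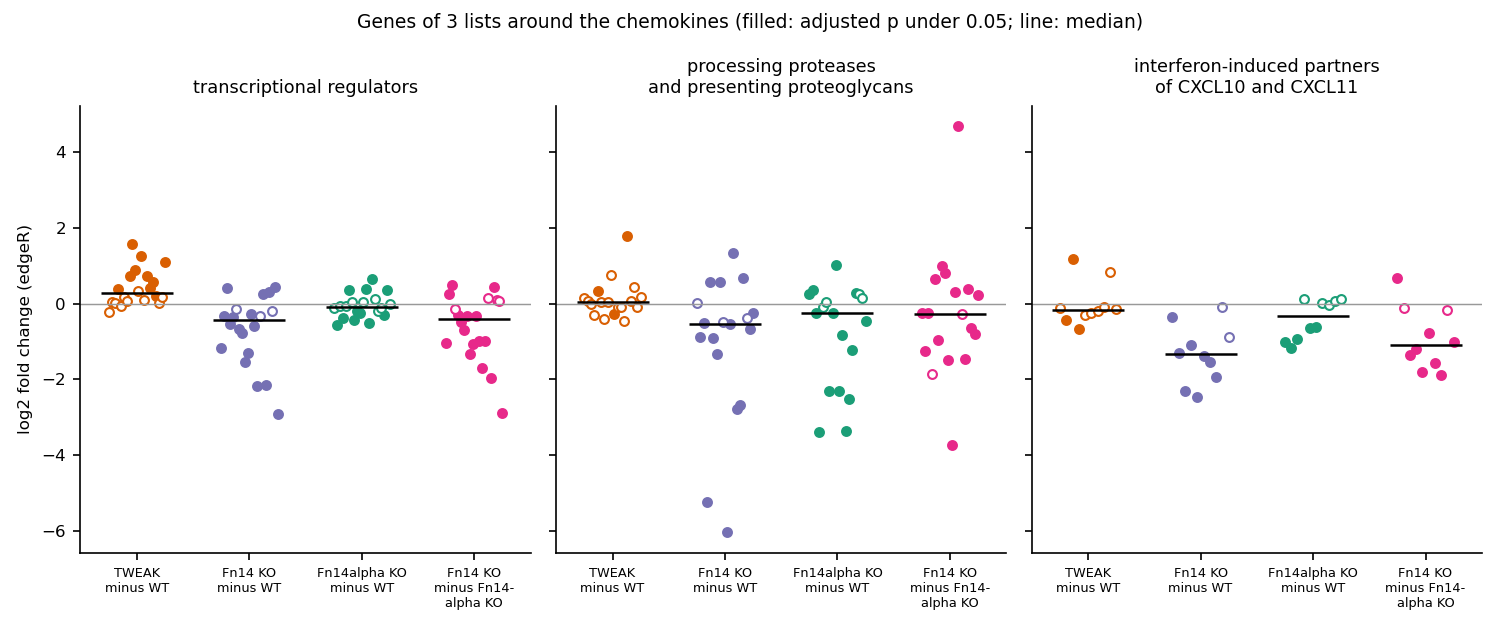
Log2 fold change of each tested gene of 3 lists in the 4 comparisons (points; filled where the adjusted p is under 0.05), with the list's median as a line. In the Fn14 knockout against WT the medians are −0.44 for transcriptional regulators, −0.53 for proteases and proteoglycans and −1.34 for interferon-induced genes.

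The list of presenting and processing genes holds proteases that shed or trim chemokines and proteoglycans that hold them at the cell surface. ADAM10 and ADAM17 shed CX3CL1 and CXCL16. ADAM10 did not pass in the Fn14 knockout against WT (log2 fold change 0.00 ± 0.07 SE, edgeR adjusted p = 0.982) and was higher in the Fn14alpha knockout than in WT (0.26 ± 0.07 SE, edgeR adjusted p = 0.00489). ADAM17 was at 1.28 FPKM in the Fn14 knockout and 3.40 FPKM in the Fn14alpha knockout, against 2.58 FPKM in WT (log2 fold change −0.89 ± 0.11 SE and 0.36 ± 0.10 SE, edgeR adjusted p = 1.46e-07 and 0.00510). MMP9, a gelatinase, rose by 1.79 ± 0.07 SE on the log2 scale with TWEAK (edgeR adjusted p = 1.35e-14). It was called lower than in WT in the Fn14 knockout (−2.69 ± 0.09 SE) and in the Fn14alpha knockout (−1.22 ± 0.08 SE). MMP1, a collagenase, fell to 0.802 FPKM in the Fn14 knockout and 11.8 FPKM in the Fn14alpha knockout, against 57.5 FPKM in WT. MMP2, a gelatinase that can cleave CXCL12, stood at 21.6 FPKM in the Fn14 knockout and 0.920 FPKM in the Fn14alpha knockout, against 9.31 FPKM in WT, and was called higher in the Fn14 knockout (1.33 ± 0.08 SE) and lower in the Fn14alpha knockout (−3.37 ± 0.11 SE). HSPG2, the proteoglycan perlecan, was 1.01 ± 0.27 SE higher on the log2 scale in the Fn14alpha knockout than in WT (edgeR adjusted p = 0.00840). Of 18 tested genes of the list, 2 were called higher and 1 lower with TWEAK, 4 higher and 11 lower in the Fn14 knockout against WT, and 4 higher and 10 lower in the Fn14alpha knockout against WT, with medians of 0.04, −0.53 and −0.25. Of all genes tested 6.87%, 52.9% and 42.2% were called in these comparisons. The 1 lower call with TWEAK, MMP1, was lost under the replicate block, without any 1 of the TWEAK replicates and without WT replicate 4, and the 2 higher calls became 4 without WT replicate 4 and replicate 1 of the Fn14 knockout together.

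Of 16 listed interferon-induced genes, which are commonly induced with CXCL10 and CXCL11, 10 were tested. In the Fn14 knockout against WT 8 of these 10 were called, each lower (median −1.34), where 52.9% of all genes tested were called. ISG15, a ubiquitin-like protein, fell by 1.54 ± 0.17 SE on the log2 scale to 4.26 FPKM in the Fn14 knockout, against 13.4 FPKM in WT (edgeR adjusted p = 5.77e-08). IFIT1 and IFIT3, antiviral RNA-binding proteins, and GBP2, a GTPase, were called lower there at −1.10 ± 0.18 SE, −1.39 ± 0.12 SE and −1.30 ± 0.12 SE. In the Fn14alpha knockout 5 of 10 were called by edgeR, each lower than in WT (median −0.33), a share near the 42.2% of all genes tested. Among them were GBP2 at −1.17 ± 0.11 SE (edgeR adjusted p = 1.43e-08) and GBP1, a GTPase of the same family, at −1.03 ± 0.10 SE (edgeR adjusted p = 7.39e-09). GBP2 was not told apart between the knockouts (edgeR adjusted p = 0.399). With TWEAK 1 was called higher and 2 lower (median −0.18), where 6.87% of all genes tested were called. The higher 1 was IFIH1, a sensor of viral RNA (log2 fold change 1.18 ± 0.24 SE, edgeR adjusted p = 0.00174). The 2 lower were IFIT1 (−0.68 ± 0.17 SE, edgeR adjusted p = 0.0118) and GBP2 (−0.43 ± 0.11 SE, edgeR adjusted p = 0.0157). The 2 lower calls became 0 without TWEAK replicate 1, and 1 without TWEAK replicate 3 or WT replicate 4.

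The genes closest in pattern were found by the root mean square (RMS) difference of centred log2 CPM over 16 libraries, among 11858 genes whose mean reached 1 FPKM. A prior count of 2 was added for these log2 CPM, which narrows differences of genes with few counts, such as CCL5. For CCL20, whose own RMS around its mean was 1.91, they were the protocadherin PCDHB6 (0.304) and CXCL2, a neutrophil attractant (0.312), at 42.9 FPKM with TWEAK, 0.850 FPKM in the Fn14 knockout and 12.4 FPKM in the Fn14alpha knockout, against 20.8 FPKM in WT. For CXCL16 (1.15) they were C1QL1 (0.199) and DBNDD1 (0.217). For CXCL12 (1.58) they were PMEPA1 (0.353), a gene induced by TGF-beta, and the oxytocin receptor gene OXTR (0.505). For CCL5 (1.32) they were NFKB2 (0.343) and NAV2-AS6 (0.451), an antisense gene whose counts are uncertain because the sources do not give the strand setting of the counting. In the edgeR fit the log2 fold changes of CCL5 were −3.71 in the Fn14 knockout against WT and 2.39 with TWEAK. Those of NFKB2 were −1.53 and 1.57, so these genes were less alike in the fit. The points share groups and libraries, so that the RMS values describe a likeness of group levels after the prior count.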

How the data were processed

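The authors deposited 1 table with a raw read count per gene and library and, from the same counts, FPKM values. Per the submitters' processing notes the tools named were HISAT2 2.0.1, HTSeq 0.6.1 and DESeq2, as well as cutadapt 1.9.1 and FastQC 0.10.1, and the builds GRCh38.p13 and hg38, without their roles. All deposited FPKM equalled the count per kilobase of exon scaled to the library total, within 0.006. Reads shared by similar genes and the strand setting are not described in the sources used here.

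Counts were tested with edgeR 4.0.16 (quasi-likelihood, two-sided, TMM, filterByExpr by group, all 16 libraries with 1 mean per group, R 4.3.3). The filter left 16029 genes, Benjamini-Hochberg adjustment ran over all of them, and a gene was called at an adjusted p under 0.05. The script was tested on simulated data. The SE is the log2 fold change divided by the square root of the F statistic. A fold is 2 to the power of the fitted log2 fold change. Counting intervals are exact (Clopper-Pearson, conditional on the sum) and, like floors, cover counting error only. DESeq2 1.42.0 was an alternative. Figures were drawn with matplotlib 3.10.9.

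Replicate libraries in 24 within-group pairs differed by more than sampling noise (chi-square per degree of freedom 2.30 to 39.0). Nothing says how replicates were separated, and the p-values therefore reflect spread between these samples that may be technical. The rule for named genes took all members, TNFRSF12A, the receptors of members, each list gene called with a change of at least 1 on the log2 scale and a group mean of at least 1 FPKM, and the 2 nearest genes per tested member. Not every gene under this rule is reported here. Members, lists and tests were chosen with earlier results of these data known. The list symbol RIGI was matched by its Ensembl identifier.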

Additional observations from a re-analysis of the deposited data

Results flagged for a closer look

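In each of the 31 sets of 4 libraries with unequal values, a library was picked out where its gap to the nearest other library was, relative to the whole range, above the 95% critical value of Dixon's test. Chance picks about 1 in 20 such sets of continuous values. Here 7 were picked, which cannot be read against that rate, since a set with counts in 1 library only is always picked, and 3 of the 7 are of that kind. TWEAK replicate 2 had 11.1 CPM of CCL20, against 8.52 to 8.66 in the other TWEAK libraries, and the call of CCL20 with TWEAK was lost without it. Fn14alpha knockout replicate 2 had 0.582 CPM of CCL5 (8 counts), above 0.261 to 0.279 in the other Fn14alpha knockout libraries. Single counts set apart Fn14 knockout replicate 1 for CCL5 (0.0669 CPM) and Fn14 knockout replicate 2 for CXCL11 (0.0609), where the other Fn14 knockout libraries were at 0. Fn14alpha knockout replicate 2 had 0.146 CPM of CXCL10 (2 counts), with 0 in the other Fn14alpha knockout libraries. For CX3CL1, Fn14alpha knockout replicate 3 and TWEAK replicate 1 were at 0, where the other libraries of those groups had 1 count each.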

How the results depend on the processing

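Each result was recomputed under total-count and DESeq2 scaling, the DESeq2 Wald test, no filter on low counts, only the groups compared, the replicate block, removal of the median of neighbouring genes, without each library in turn, and with both WT replicate 4 and replicate 1 of the Fn14 knockout left out. Of 253 recomputed fold changes of CCL5, CCL20, CXCL12 and CXCL16, 244 kept direction and side of the threshold. In 3 CCL20 lost its call with TWEAK and in 1 CXCL12 gained one, as given above, so that 1 member was called lower with TWEAK under total counts and 1 to 2 higher without single libraries. With no filter, 5 members were called lower in the Fn14 knockout than in the Fn14alpha knockout, since CCL2 and CXCL11 entered. In that fit 26.9% of all genes were called, 13.2% lower. Without any single library 4 members were called lower, since CCL2 entered under the condition given above. Of 640 recomputed counts of list genes 32 moved by over 1.5 times. Beside those given above for TWEAK, 1 regulator was called lower with TWEAK without both libraries that lay apart. Counts also moved between other groups. Without single libraries, receptors called lower in the Fn14 knockout than in WT numbered 0 to 1. Receptors called higher in the Fn14 knockout than in the Fn14alpha knockout numbered 1 to 2. Differences near 0 changed sign: CCL5 in the Fn14alpha knockout against WT was −0.33 with the median of neighbouring genes removed, −0.33 to 0.13 without single libraries and −0.10 without both libraries that lay apart, and CXCL16 with TWEAK was −0.10 to 0.0023 without single libraries (log2; none passed). Fitted differences of CCL5 between the Fn14 knockout and WT ran from −5.45 to −3.39, all called. The cause of these shifts was not tested. CCL5 had no value with only the groups compared where TWEAK was not among them. Replicate numbers did not pair the samples: correlations of same-numbered deviations ran from −0.23 to 0.11. With the replicate block, calls numbered 893 with TWEAK against WT (1101 without), 8205 in the Fn14 knockout against WT (8472), 6454 in the Fn14alpha knockout against WT (6771) and 9241 between the knockouts (9489), and no member's call changed. Total counts moved the median of all genes to −0.12 in the Fn14 knockout against WT and −0.15 between the knockouts, and gave 586 higher and 750 lower genes with TWEAK (773 and 328 with TMM), 3189 and 5681 in the Fn14 knockout against WT (4256 and 4216), and 3666 and 6166 between the knockouts (4923 and 4566). Depth limits CCL2, CCL7, CX3CL1, CXCL10 and CXCL11.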

Other observations

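The eosinophil-attracting pair of CCL26 and its receptor CCR3, picked after their values were seen, did not pass the filter on low counts. CCR3 had 15 counts with TWEAK, 0 in the Fn14 knockout and 1 in the Fn14alpha knockout, against 43 in WT, and with no filter both knockouts were called lower than WT (edgeR adjusted p = 6.41e-08 and 1.13e-06), while TWEAK was not (0.241). CCL26 had 21 counts with TWEAK, 2 in the Fn14 knockout and 20 in the Fn14alpha knockout, against 35 in WT, and with no filter it was called lower in the Fn14 knockout than in WT (edgeR adjusted p = 3.58e-05) and than in the Fn14alpha knockout (0.00346). In that fit 24.2% of 37059 genes were called between the Fn14 knockout and WT. The share was 18.1% between the Fn14alpha knockout and WT and 26.9% between the knockouts.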
